A study of Mus musculus with 4 samples.

Results

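Autophagy and lysosome genes were followed as a module of 43 named genes in mouse CD4+ T cells cultured towards the regulatory T (Treg) fate, with and without a label of Setd2 deletion. The members were taken by gene symbol from the deposited expression table, which listed 34745 genes, and all 43 were found and passed the filter on low counts that 13279 genes passed. The Setd2-targeted libraries, numbered 22 and 24 and called knockout-labelled here, came from mice whose genotype is given as Setd2-CD4 cre, and the control libraries, numbered 13 and 15, came from wild-type mice. All mice were of the C57BL/6 strain, and naive CD4+ T cells from spleen were held under Treg polarizing conditions for 3 days before total RNA was sequenced. Setd2 encodes a histone methyltransferase that acts on histone H3. The CD4-driven Cre recombinase is active in developing T cells, so deletion with it precedes the culture. The labels do not give the age of the mice, whether wild-type mice carried Cre or floxed alleles, or if each library had its own mouse. The p-values therefore rest on library-to-library spread, which may be partly or wholly technical.

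Library totals ran from 14599957 to 16030869 counts, so that 3 counts equalled 0.184 to 0.201 CPM (counts scaled to library size), and the members spanned 38 counts to 9227 counts per library. Setd2 itself, counted over the whole gene, stood at 137 and 113 CPM in the knockout-labelled libraries and 137 and 146 CPM in wild type (adjusted p = 0.436 by edgeR's quasi-likelihood test), and the labels do not name the deleted exons. The T cell genes Cd3d, Cd3e, Cd4 and Trac were high in every library, with summed levels of 2219 and 2115 CPM in the knockout-labelled libraries and 2244 and 2116 CPM in wild type. Foxp3, which defines Treg cells, measured 31.9 and 75.8 CPM in knockout-labelled 22 and 24, against 242 and 247 CPM in wild type 13 and 15 (log2 fold change -2.18, adjusted p = 0.0233). All 5 Treg markers together summed to 2357 and 2350 CPM in the knockout-labelled libraries, against 2676 and 2635 CPM in wild type, and 2 of them, Foxp3 and Il2ra, fell. Ctla4 (968 and 835 CPM in knockout-labelled 22 and 24, against 684 and 676 CPM in wild type 13 and 15) and Ikzf2 (221 and 201 CPM in the knockout-labelled libraries, against 167 and 165 CPM in wild type) lay above wild type without overlap and did not pass (adjusted p = 0.0702 and 0.103), and the groups overlapped for Tnfrsf18 (adjusted p = 0.912). Over all genes, 10.1% passed an adjusted p of 0.05, with 5.53% above and 4.59% below their wild-type level.

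Autophagy carries cytoplasmic material to the lysosome for digestion. A kinase complex around Ulk1 starts it, a lipid kinase complex around Becn1 marks the growing membrane, and a conjugation system attaches small Atg8-type proteins (the LC3 and GABARAP proteins) to that membrane, where cargo receptors such as Sqstm1 bind them. The kinase complex mTORC1 restrains Ulk1 and holds the transcription factors Tfeb and Tfe3, which switch on lysosomal and autophagy genes, in the cytoplasm while nutrients are plentiful. In mice, autophagy in Treg cells is known to be needed for their stability.

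Of the 43 members, 7 were higher in the knockout-labelled libraries, 1 was lower and 35 did not pass the threshold (18.6% called, against a background of 10.1% of all genes tested). At an unadjusted p below 0.05 the share was 32.6% of members and 31.6% of all genes. The genes that rose were Gabarapl1 and Gabarap of the Atg8 family, the starting kinase Ulk1, the membrane-recruited Wipi1, the cargo receptor Sqstm1 and the lysosomal proteases Ctsd and Ctsb. The gene that fell was Lamp1, an abundant glycoprotein of the lysosomal membrane. The members' median log2 fold change was 0.17 (knockout-labelled over wild type, here and below), against -0.001 for all genes tested, and 35 members had fitted values above 0 and 8 below. The groups did not overlap for 22 members, with 20 above wild type and 2, Lamp1 and Tfeb, below it, against 63.8% of all genes without overlap (31.1% above and 32.7% below). When libraries were scaled by their totals the members' median was 0.11, with 30 above 0 and 13 below, and the median of all genes was -0.06. In this bulk RNA, fewer cells of a type and less RNA per cell cannot be told apart.

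**Figure D1:**
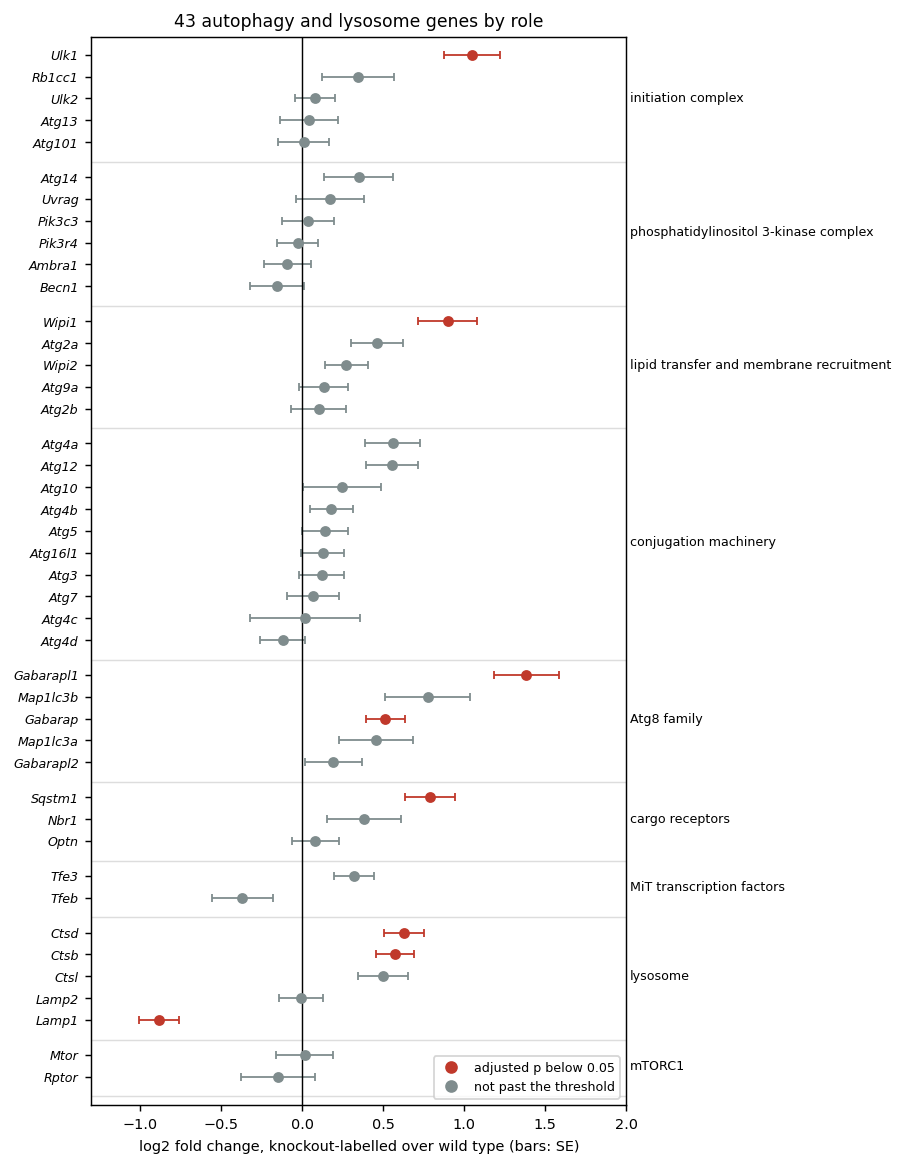
Log2 fold change (knockout-labelled over wild type) of each of the 43 members, grouped by role from starting kinase complex to mTORC1, with bars for the standard error and red for genes past an adjusted p of 0.05. Red points stand above 0 for 7 genes, from Gabarap at 0.51 to Gabarapl1 at 1.38, and below 0 for Lamp1 at -0.88.

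The regions just before the start of 4 of these genes are shown because they hold, or lack, the E-box that Tfeb and Tfe3 bind in lysosomal genes. Each run is the 250 bases before the RefSeq start of transcription, read 5′ to 3′ on the gene's strand of the GRCm38.p6 build. Capitals mark the letters CACGTG, which read the same on both strands. Gene coordinates given below are from the deposited expression table, where these 4 genes begin further upstream. Each run therefore lies partly, and that of Ctsd mostly, within the gene as listed there. Distances of the motif are counted from the RefSeq start.
Gabarapl1, chr6:129532942-129533191, plus strand: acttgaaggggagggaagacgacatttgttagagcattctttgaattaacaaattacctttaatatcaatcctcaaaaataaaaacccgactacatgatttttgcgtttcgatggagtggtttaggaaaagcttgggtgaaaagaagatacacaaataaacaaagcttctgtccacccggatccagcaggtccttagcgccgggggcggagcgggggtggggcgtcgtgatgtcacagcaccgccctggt
Ulk1, chr5:110810082-110810331, minus strand: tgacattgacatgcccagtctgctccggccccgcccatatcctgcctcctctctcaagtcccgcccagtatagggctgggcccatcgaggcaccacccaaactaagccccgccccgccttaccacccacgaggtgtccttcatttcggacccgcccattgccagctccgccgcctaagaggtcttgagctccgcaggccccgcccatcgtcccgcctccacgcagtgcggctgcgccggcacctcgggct
Ctsd, chr7:142387828-142388077, minus strand: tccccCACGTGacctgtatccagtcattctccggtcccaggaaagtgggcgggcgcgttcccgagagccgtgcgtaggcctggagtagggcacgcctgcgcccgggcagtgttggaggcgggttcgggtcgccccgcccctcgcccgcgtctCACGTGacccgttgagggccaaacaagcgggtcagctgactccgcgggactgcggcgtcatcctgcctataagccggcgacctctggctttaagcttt
Lamp1, chr8:13158911-13159160, plus strand: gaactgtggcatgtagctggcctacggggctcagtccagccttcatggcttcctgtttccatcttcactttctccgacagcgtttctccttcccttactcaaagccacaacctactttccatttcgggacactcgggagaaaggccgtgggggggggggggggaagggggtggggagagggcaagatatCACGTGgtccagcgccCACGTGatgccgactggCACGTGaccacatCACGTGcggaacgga
The Lamp1 run holds the motif 4 times, with its first base 61, 45, 28 and 15 bases before the start, and the Ctsd run holds it 2 times, 245 and 98 bases before the start. The runs of Gabarapl1 and Ulk1 hold none. Lamp1 fell, while Ctsd, Gabarapl1 and Ulk1 rose, and whether the motif has a part in these changes was not tested.

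Promoter entries (250 bases before to 50 after the start) existed for 36 of the 43 members and for 7 of the 8 genes past the threshold. CACGTG stood in 7 of 36 members (19.4%) and in 8.09% of all 27025 genes of the RefSeq promoter table. The 7 genes were Lamp1, Ctsd, Ctsl, Atg3, Atg5, Atg7 and Atg14, so Lamp1 and Ctsd were the 2 of the called genes with an entry that held it. The longer form TCACGTGA, which contains CACGTG, stood in 2 of 36 members (5.56%), Ctsd and Atg3, and in 1.12% of all genes. The full CLEAR element, a longer palindrome that contains both shorter forms, stood in 0 of 36 members and 0.37% of all genes. A match in these windows is a description of sequence, and binding was not measured.

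Among the starting kinases, Ulk1 (ENSMUSG00000029512, chr5:110784488-110810097 on the minus strand of GRCm38), the kinase that begins autophagy, measured 189 and 141 CPM in knockout-labelled 22 and 24, against 84.3 and 75.3 CPM in wild type 13 and 15. The groups did not overlap, and knockout-labelled 22 was the highest. Ulk1 rose 2.07-fold (log2 fold change 1.05, SE 0.17, adjusted p = 0.0223 by edgeR's quasi-likelihood test). Its relative Ulk2 measured 68.3 and 68.5 CPM in the knockout-labelled libraries and 63.3 and 66.2 CPM in wild type (log2 fold change 0.08, adjusted p = 0.692). The partners of the kinases, the scaffold Rb1cc1 (FIP200), Atg13 and Atg101, had fitted log2 fold changes of 0.34, 0.04 and 0.01, with adjusted p-values of 0.324, 0.888 and 0.969. Rb1cc1 measured 80.4 and 53.7 CPM in the knockout-labelled libraries and 46.7 and 58.9 CPM in wild type, so its groups overlapped. Within the complex, the difference thus passed the threshold for 1 of 5 genes, against 10.1% of all genes tested.

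None of the 6 members of the lipid kinase complex passed the threshold, against 10.1% of all genes tested. The groups overlapped for each of the 6, while 63.8% of all genes tested had no overlap. Becn1, the scaffold of the complex, measured 91.5 and 113 CPM in knockout-labelled 22 and 24 and 103 and 124 CPM in wild type 13 and 15 (log2 fold change -0.15, SE 0.16, adjusted p = 0.552). Its exons share 43.93% of their bases with Cntd1 on the opposite strand, so part of its count may belong to that gene, which fell (188 and 282 counts in the knockout-labelled libraries, 541 and 416 in wild type, adjusted p = 0.0395). The catalytic kinase Pik3c3 (Vps34) and its regulatory subunit Pik3r4 had fitted log2 fold changes of 0.04 and -0.03, with SEs of 0.16 and 0.13 and adjusted p-values of 0.897 and 0.902. The targeting subunits Atg14 and Uvrag and the regulator Ambra1 had 0.35, 0.17 and -0.09, with adjusted p-values of 0.299, 0.604 and 0.696. Atg14 was highest in knockout-labelled 22, at 30.7 CPM and 22.3 CPM in 24, against 22.9 and 18.8 CPM in wild type. Ambra1 and Atg13 lie 19557 bases apart on chromosome 2, and neither passed.

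Of the 5 genes that recruit membrane and move lipid, Wipi1 (ENSMUSG00000041895, chr11:109573331-109611967, minus strand), which binds the lipid that the Becn1 complex makes, measured 20.6 and 18.8 CPM in knockout-labelled 22 and 24, against 11.3 and 9.79 CPM in wild type 13 and 15. Both knockout-labelled libraries lay above both wild-type libraries, and Wipi1 rose 1.86-fold (log2 fold change 0.90, SE 0.18, adjusted p = 0.0332). Its relative Wipi2, the form that recruits Atg16l1, was the more abundant per length, at 7.76 FPKM over the 4 libraries against 3.18 FPKM for Wipi1 (authors' deposited values), and measured 113 and 104 CPM in the knockout-labelled libraries, against 95.3 and 84.9 CPM in wild type (log2 fold change 0.27, adjusted p = 0.215). The groups did not overlap for either relative, and of the pair Wipi1 alone was called. Atg2a, a bridge that carries lipid into the growing membrane, measured 91.6 and 72.2 CPM in the knockout-labelled libraries, against 62.4 and 56.4 CPM in wild type (log2 fold change 0.46, SE 0.16, adjusted p = 0.105). Its relative Atg2b and the membrane-spanning Atg9a had fitted log2 fold changes of 0.10 and 0.13, with adjusted p-values of 0.715 and 0.584.

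**Figure D2:**
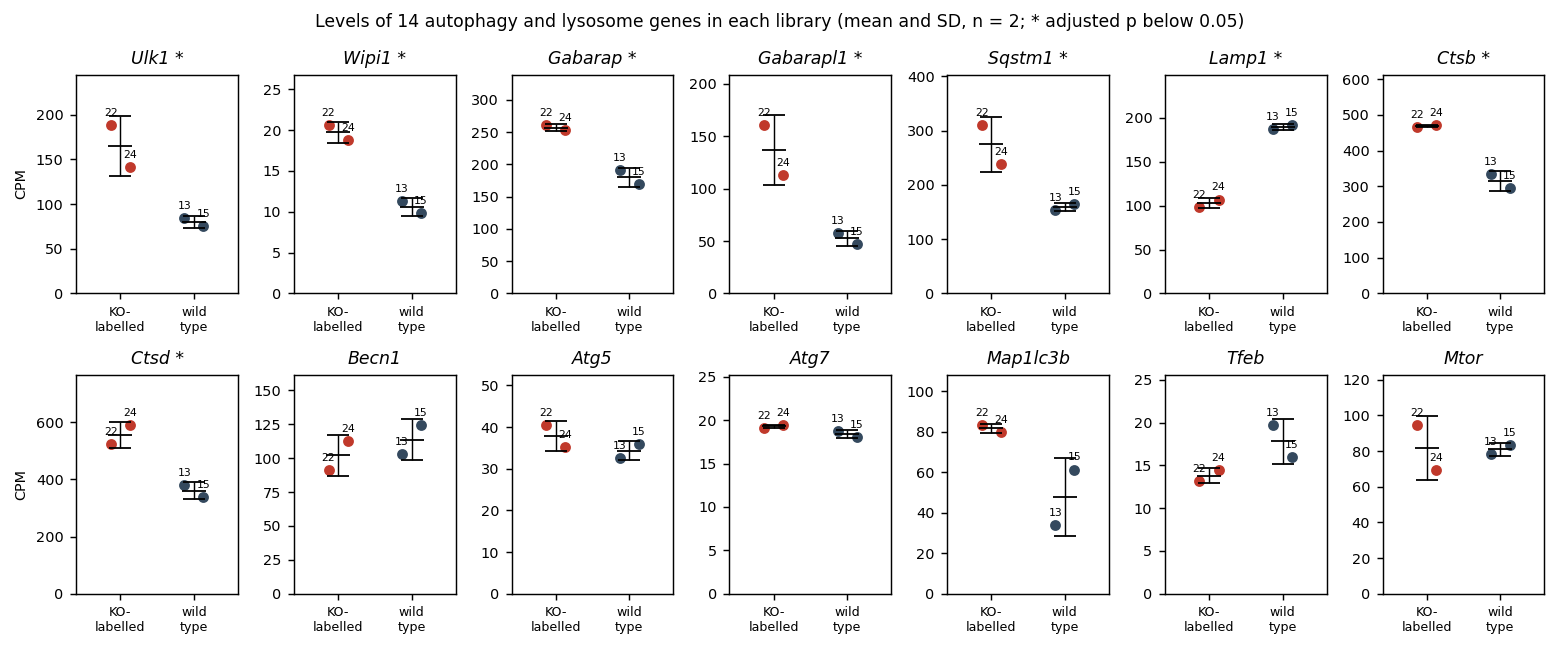
CPM of 14 members in each library (points, labelled by library number) with the mean and SD of each group (n = 2), each axis starting at 0, and an asterisk for an adjusted p below 0.05. The knockout-labelled points lie apart from the wild-type points for all 8 starred genes, on the low side for Lamp1, while wild type 13 and 15 lie far from each other for Map1lc3b.

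The conjugation system held 10 members, and none passed the threshold, against 10.1% of all genes tested. For 5 of the 10, both knockout-labelled libraries lay above both wild-type libraries (as did 31.1% of all genes tested). Atg12, the ubiquitin-like protein joined to Atg5, measured 106 and 82.4 CPM in knockout-labelled 22 and 24, against 64.1 CPM in both wild-type libraries (log2 fold change 0.56, SE 0.16, adjusted p = 0.0704). Atg4a, a protease that trims GABARAP-type proteins, measured 60.2 and 45.8 CPM in the knockout-labelled libraries, against 38.4 and 33.6 CPM in wild type (log2 fold change 0.56, SE 0.17, adjusted p = 0.0818). Both were past the threshold without knockout-labelled 24 (adjusted p = 0.00746 and 0.0135) and with no filter on low counts (adjusted p = 0.038 and 0.0443), and Atg12 also with DESeq2 (adjusted p = 0.0308). The count of Atg4a is uncertain, since 51.2% of the 50-base stretches of its transcripts also occur in other genes, mainly the copy Atg4a-ps (191 and 137 counts in the knockout-labelled libraries, 137 and 127 in wild type).

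Deletion of Atg5 or Atg7 is the usual way to block autophagy in mouse T cells, and neither passed the threshold here. Atg5, the partner of Atg12, measured 40.4 and 35.2 CPM in the knockout-labelled libraries and 32.7 and 35.9 CPM in wild type (log2 fold change 0.14, SE 0.14, adjusted p = 0.533). Atg7, the enzyme that activates Atg12 and the Atg8-type proteins, measured 19.1 and 19.4 CPM in the knockout-labelled libraries and 18.7 and 18.1 CPM in wild type (log2 fold change 0.07, SE 0.16, adjusted p = 0.797). The transfer enzymes Atg3 and Atg10 had fitted log2 fold changes of 0.12 and 0.25, with adjusted p-values of 0.581 and 0.522, and Atg16l1, which places the Atg12 and Atg5 conjugate on membrane, had 0.13 (adjusted p = 0.545). The other proteases, Atg4b, Atg4c and Atg4d, had 0.18, 0.02 and -0.12 (adjusted p = 0.388, 0.974 and 0.591). Atg4c was the lowest member of the module per length, at 0.615 FPKM, with 38 to 63 counts in the 4 libraries.

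The Atg8 family, whose proteins coat the autophagosome, showed the largest fold change of the module. Gabarapl1 (ENSMUSG00000030161, chr6:129533160-129542346, plus strand) measured 161 and 113 CPM in knockout-labelled 22 and 24, against 57.4 and 47.6 CPM in wild type 13 and 15. Every knockout-labelled value was above every wild-type value, and the gene rose 2.61-fold (log2 fold change 1.38, SE 0.20, adjusted p = 0.0184). A stretch of its transcripts overlaps the opposite-strand gene 1700101I11Rik, which had 0 to 3 counts per library. Downstream on the same chromosome lie Klre1 (chr6:129577905-129585827) and Klri2 (chr6:129729041-129740484), used below as natural killer cell markers. Both also rose (log2 fold changes 1.59 and 2.54, adjusted p = 0.044 and 0.00947 by edgeR). Whether these rises are linked to that of Gabarapl1 was not tested. Gabarap (ENSMUSG00000018567, chr11:69991143-69994951, plus strand), the most abundant member of the family per length, measured 261 and 253 CPM in the knockout-labelled libraries, against 191 and 169 CPM in wild type. It rose 1.43-fold (log2 fold change 0.51, SE 0.12, adjusted p = 0.0464), and this call was not made with upper-quartile scaling or with library totals.

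Map1lc3b, which encodes the LC3B protein used as the common marker of autophagosomes, measured 83.1 and 80.0 CPM in knockout-labelled 22 and 24, against 34.0 and 61.3 CPM in wild type 13 and 15. The groups did not overlap, yet the wild-type libraries differed widely, with means of 81.6 ± 2.18 CPM in knockout-labelled libraries and 47.7 ± 19.3 CPM in wild type (SD, n = 2 each), and the log2 fold change of 0.78 (SE 0.26) did not pass (adjusted p = 0.1). Without wild type 15 the log2 fold change was 1.25 (adjusted p = 0.0358), and without wild type 13 it was 0.41 (adjusted p = 0.451). With all 4 libraries it was called with DESeq2 (adjusted p = 0.0302) and with no filter on low counts (adjusted p = 0.0279). Map1lc3a and Gabarapl2 had fitted log2 fold changes of 0.46 and 0.19, with adjusted p-values of 0.227 and 0.485. Gabarapl2 measured 60.3 CPM in knockout-labelled 22 and 83.0 CPM in 24, against 62.7 CPM in both wild-type libraries, so its libraries lay on either side of wild type. Its sequence is shared with the pseudogene Gm3724 over 12.2% of its 50-base stretches.

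Per length, the family summed to 153.5 and 150.2 FPKM in knockout-labelled 22 and 24, against 104 and 96.8 FPKM in wild type 13 and 15 (authors' deposited FPKM). Gabarapl1 made up 31.4% and 23.6% of that sum in the knockout-labelled libraries, against 17.6% and 15.7% in wild type. The share of Gabarap was 48.9% and 50.6% in the knockout-labelled libraries, against 56.0% and 53.7% in wild type, although its own level was higher. The 2 LC3 genes together stayed the minor part in every library, with Map1lc3b at 4.91% and 5.04% in the knockout-labelled libraries and 3.15% and 6.12% in wild type. The shares are given without a test.

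**Figure D3:**
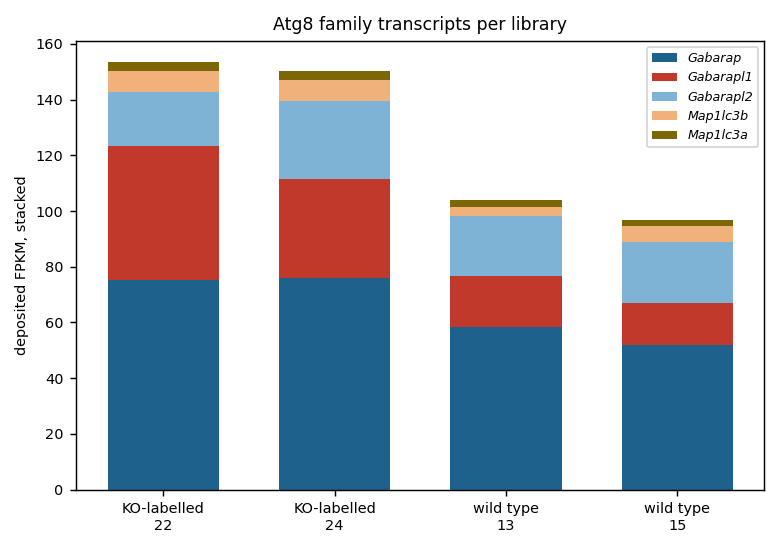
Deposited FPKM of the 5 Atg8 family genes, stacked per library, with the knockout-labelled libraries on the left. The stacks reach 153.5 and 150.2 FPKM in the knockout-labelled libraries against 104 and 96.8 FPKM in wild type, and the Gabarapl1 segment is taller in the knockout-labelled libraries.

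Among the 3 cargo receptors, Sqstm1 (p62; ENSMUSG00000015837, chr11:50199366-50210827, minus strand), which links ubiquitin-tagged cargo to the Atg8-type proteins and is itself consumed by autophagy, measured 310 and 239 CPM in knockout-labelled 22 and 24, against 154 and 164 CPM in wild type 13 and 15. The groups did not overlap, and Sqstm1 rose 1.73-fold (log2 fold change 0.79, SE 0.16, adjusted p = 0.0312). Of the 50-base stretches of its transcripts, 15.5% also occur in the opposite-strand neighbour Mrnip, for which no counts were found under that name. Nbr1, a receptor of similar build, measured 158 and 97.5 CPM in the knockout-labelled libraries and 101 and 95.2 CPM in wild type (log2 fold change 0.38, adjusted p = 0.293), and its higher mean rested on knockout-labelled 22. Optn, a receptor for mitochondria and bacteria, had a fitted log2 fold change of 0.08, with an adjusted p of 0.726.

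Neither of the transcription factors passed the threshold, and their fitted values had opposite signs. Tfeb measured 13.2 and 14.4 CPM in knockout-labelled 22 and 24, against 19.7 and 16.0 CPM in wild type 13 and 15 (log2 fold change -0.37, SE 0.19, adjusted p = 0.23). Tfe3 measured 50.2 and 46.7 CPM in the knockout-labelled libraries, against 38.8 CPM in both wild-type libraries (log2 fold change 0.32, SE 0.12, adjusted p = 0.136). The groups did not overlap for either gene. These proteins are controlled largely by where they sit in the cell, which RNA levels do not report.

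The lysosomal members moved in both directions. Ctsd (ENSMUSG00000007891, chr7:142371148-142388038, minus strand), an aspartic protease of the lysosome and the most abundant member of the module per length at 118 FPKM, measured 525 and 589 CPM in knockout-labelled 22 and 24, against 381 and 339 CPM in wild type 13 and 15. It rose 1.55-fold without overlap of the groups (log2 fold change 0.63, SE 0.12, adjusted p = 0.0308). Ctsb (ENSMUSG00000021939, chr14:63122462-63145919, plus strand), a cysteine protease and the next in abundance, measured 466 and 471 CPM in the knockout-labelled libraries, against 335 and 294 CPM in wild type, and rose 1.49-fold (log2 fold change 0.57, SE 0.12, adjusted p = 0.034). Ctsl, a related protease, measured 25.4 and 27.2 CPM in the knockout-labelled libraries, against 18.6 CPM in both wild-type libraries (log2 fold change 0.50, SE 0.16, adjusted p = 0.0838).

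Lamp1 (ENSMUSG00000031447, chr8:13159135-13175338, plus strand), in contrast, measured 98.6 and 107 CPM in knockout-labelled 22 and 24, against 187 and 192 CPM in wild type 13 and 15. The mean was 103 ± 5.96 CPM in knockout-labelled libraries and 189 ± 3.46 CPM in wild type (SD, n = 2 each), and Lamp1 fell 1.84-fold (log2 fold change -0.88, SE 0.12, adjusted p = 0.0165), the smallest adjusted p of the 43 members. Lamp2, the sister glycoprotein of the lysosomal membrane, measured 79.4 and 70.2 CPM in the knockout-labelled libraries and 75.3 and 74.9 CPM in wild type (adjusted p = 0.977). Per length, Lamp1 stood at 41.9 to 86.9 FPKM over the 4 libraries and Lamp2 at 7.05 to 7.70 FPKM. The transcripts of Ctsd, Ctsb and Lamp1 share 32.4%, 12.1% and 5.90% of their 50-base stretches with overlapping genes (Gm49369, Fdft1 and Grtp1). No counts were found under the name Gm49369, which lies on the same strand as Ctsd, so its part in the count of Ctsd is not known. Fdft1 measured 1729 and 1373 counts in the knockout-labelled libraries, against 1068 and 1013 in wild type (adjusted p = 0.0641), and Grtp1 measured 18 and 14 counts in the knockout-labelled libraries, against 12 and 9 in wild type.

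Macrophages and dendritic cells are rich in cathepsins, so their markers were set beside these values. The 10 myeloid markers summed to 93.9 and 98.4 CPM in knockout-labelled 22 and 24 and to 92.5 and 86.9 CPM in wild type 13 and 15. Most of each sum came from Cd74 and H2-Aa, so the sums say little about the other markers. Of the 7 that passed the filter, 0 were called by edgeR at an adjusted p of 0.05. Their fitted log2 fold changes ran from -0.66 for Lyz2 to 0.86 for Csf1r. Fcgr1 was at 0 counts in knockout-labelled 22 and wild type 13, and at 3 and 2 counts in the other libraries. The 6 B cell markers summed to 284 and 336 CPM in the knockout-labelled libraries, against 224 and 225 CPM in wild type, mostly from Ighm, and Igkc rose. The 4 natural killer cell markers summed to 32.0 and 29.2 CPM in the knockout-labelled libraries, against 6.93 and 6.30 CPM in wild type. Klri2 made up most of each sum, at 361 and 368 counts in the knockout-labelled libraries and 75 and 53 in wild type. Klri2 and Klre1 rose, while the groups overlapped for Klrb1c (adjusted p = 0.417 by edgeR). Ncr1 had 8 and 3 counts in knockout-labelled 22 and 24 and 0 counts in both wild-type libraries. The 2 CD8 markers summed to 182 and 78.2 CPM in knockout-labelled 22 and 24 and to 125 and 183 CPM in wild type. The part of myeloid cells, B cells, natural killer cells and the lower Foxp3 in the results on the members was not tested.

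The mTORC1 members did not pass. Mtor, its kinase, measured 94.4 and 69.2 CPM in knockout-labelled 22 and 24 and 78.3 and 83.5 CPM in wild type 13 and 15 (log2 fold change 0.02, SE 0.18, adjusted p = 0.96). Rptor, the subunit that selects its substrates, measured 53.0 and 32.3 CPM in the knockout-labelled libraries and 46.1 and 48.4 CPM in wild type (log2 fold change -0.15, SE 0.23, adjusted p = 0.688). Knockout-labelled 22 was above and knockout-labelled 24 below both wild-type libraries for each gene.

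Per length, the module spanned 118 FPKM for Ctsd to 0.615 FPKM for Atg4c as means over the 4 libraries, with a median member at 8.29 FPKM against 5.51 FPKM for all genes tested. Ctsb (82.3 FPKM), Gabarap (65.3 FPKM) and Lamp1 (65.2 FPKM) followed Ctsd. The order of Gabarap and Lamp1 differed by group. Gabarap was above Lamp1 in knockout-labelled 22 and 24 (75.1 and 75.9 FPKM against 41.9 and 47.5 FPKM). Lamp1 was above Gabarap in wild type 13 and 15 (84.4 and 86.9 FPKM against 58.2 and 51.9 FPKM). Atg12, Sqstm1 and Gabarapl1 came next at 31.6, 30.7 and 29.3 FPKM. Gabarapl1 was the highest of them in both knockout-labelled libraries and the lowest in both wild-type libraries. Rptor, Tfe3, Atg7, Tfeb and Atg4c were the 5 lowest, each at or below 2.20 FPKM. Of the 8 called genes, 7 stood above the median member and Wipi1, at 3.18 FPKM, below it.

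The knockout-labelled libraries also differed from each other across the module. Of the 43 members, 30 were higher in knockout-labelled 22 than in 24, with a median absolute log2 difference of 0.21, against 22 higher in wild type 13 than in 15, with a median absolute difference of 0.14. Set against the wild-type mean, the median member lay 0.27 higher in knockout-labelled 22 and 0.08 higher in 24 on the log2 scale. Ulk1, Gabarapl1, Sqstm1 and Nbr1 were higher in 22, and Ctsd, Gabarapl2 and Becn1 were higher in 24.

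The calls differed with the library that was left out. Without knockout-labelled 22 or 24, all 8 genes were past the threshold with the same sign (10 and 15 members called, against backgrounds of 13.8% and 30.2%). Without wild type 13, Gabarapl1 alone of the 8 passed (adjusted p = 0.0247, background 2.33%). Without wild type 15, none of the 8 passed by edgeR and Map1lc3b did (background 1.37%). In that fit 7 of 43 members (16.3%) had an unadjusted p below 0.05, against 15.2% of all genes. In each fit without a library, the lone library left in that group is assumed to vary like the other group's pair. The knockout-labelled pair varied more than the wild-type pair (chi-square per degree of freedom 28.5 and 9.33). The calls in these fits therefore cannot show how far a call rested on the library left out. The fitted values ran from 1.12 to 1.61 for Gabarapl1 and from -0.95 to -0.81 for Lamp1. When a fold beyond 1.2 was required, Ulk1, Gabarapl1 and Lamp1 were called, against 4.67% of all genes. With limma on the deposited FPKM (log2 scale, 1 added), Wipi1, Gabarap, Ctsb and Ctsd were not called.

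**Figure D4:**
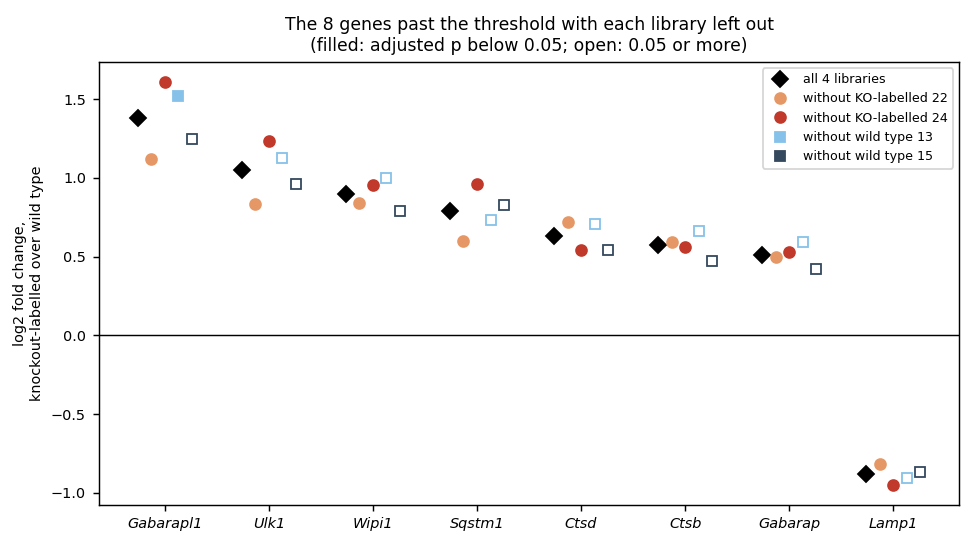
Log2 fold change (knockout-labelled over wild type) of the 8 called members with all 4 libraries and with each left out, filled where the adjusted p was below 0.05. Without either wild-type library the points stay on the same side of 0 but are open, except Gabarapl1 without wild type 13.

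The other genes of the pathway were read from a wider list of 160 genes, of which 157 passed the filter. Here 5 rose and 2 fell, which is 4.46% of the list against a background of 10.1%, and the median log2 fold change was 0.04. Among 33 other autophagy genes, 2 rose and 1 fell. Wdr45 (WIPI4), a lipid-binding relative of Wipi1, measured 47.0 and 49.4 CPM in the knockout-labelled libraries, against 27.9 and 25.8 CPM in wild type (log2 fold change 0.84, SE 0.13, adjusted p = 0.0204). Tecpr1, which helps join autophagosomes to lysosomes, measured 455 and 355 CPM in the knockout-labelled libraries, against 259 and 242 CPM in wild type (log2 fold change 0.69, adjusted p = 0.0374). Bcl2, the survival protein that also binds Beclin 1 and holds it inactive, measured 381 and 455 CPM in the knockout-labelled libraries, against 699 and 701 CPM in wild type (log2 fold change -0.74, SE 0.13, adjusted p = 0.0233).

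Among 45 other lysosomal enzymes, 1 rose and 1 fell, and the median log2 fold change was 0.01. Neu1, the lysosomal sialidase, which trims sugars from Lamp1 among other proteins, measured 100 and 60.1 CPM in knockout-labelled 22 and 24, against 35.5 and 31.8 CPM in wild type 13 and 15 (log2 fold change 1.25, SE 0.24, adjusted p = 0.0308). Naglu, an enzyme of heparan sulfate breakdown, measured 9.50 and 14.0 CPM in knockout-labelled 22 and 24, against 24.0 and 25.8 CPM in wild type (log2 fold change -1.08, SE 0.22, adjusted p = 0.0343). Of 37 genes of the lysosomal membrane and proton pump, the pump subunit Atp6v1e1 rose (82.9 and 85.8 CPM in the knockout-labelled libraries, 55.4 and 60.4 CPM in wild type, adjusted p = 0.0471) and 36 did not pass. Of 42 genes of mTORC1 and nutrient sensing, Flcn, which acts on the small GTPases that bring mTORC1 to the lysosome, rose (124 and 94.5 CPM in the knockout-labelled libraries, against 65.3 and 60.0 CPM in wild type, adjusted p = 0.0363) and 41 did not pass. None of these 7 genes passed without wild type 13 or without wild type 15 (adjusted p from 0.0525 to 0.375). In these edgeR fits 8.86% of the list without wild type 13 and 8.81% without wild type 15 had an unadjusted p below 0.05, against 17.7% and 15.2% of all genes.

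**Figure D5:**
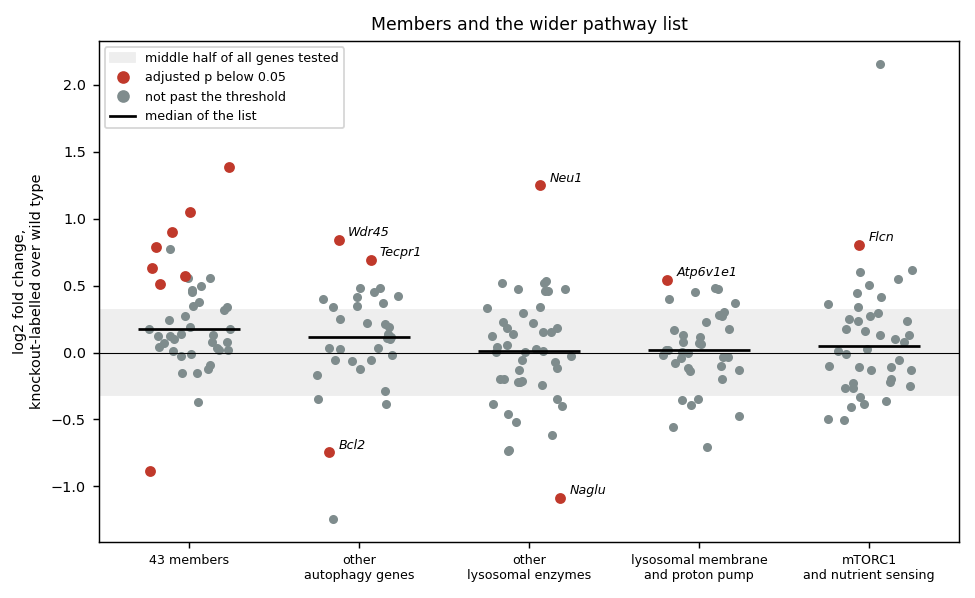
Log2 fold change (knockout-labelled over wild type) of each gene in the module and in the 4 sets of the wider list, with a bar at each median, red for an adjusted p below 0.05 and grey shading for the interquartile range of all genes tested. The medians of the 4 wider sets lie between 0.01 and 0.12. Of their 157 genes, 7 are red (4.46%), against 8 of the 43 members (18.6%) and 10.1% of all genes tested.

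CACGTG was also counted in the wider list, where 31 of 129 genes with a promoter entry held it (24.0%). The share was 8.09% over all 27025 genes of the RefSeq promoter table, which was not limited to genes past the filter on low counts. The share was 30.3% among the other lysosomal enzymes, 27.6% among genes of the lysosomal membrane and proton pump, 21.4% among other autophagy genes and 17.9% among genes of mTORC1 and nutrient sensing. The median log2 fold changes of these sets were 0.01, 0.02, 0.12 and 0.05 in the same order. Of the 7 wider genes past the threshold, Naglu, which fell, held the motif.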

How the data were processed

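Gene expression was measured in 4 libraries of cultured splenic CD4+ T cells, grouped by the labelled genotype. Bowtie2 and RSEM with GRCm38.p6 (mm10) are named, without versions, in the submitters' processing notes. The strand setting and annotation release were not given in the sources used here. The authors deposited whole-number counts per gene and, beside them, FPKM values, which are per length. The deposited counts were tested with edgeR 4.0.16 in R 4.3.3 (filterByExpr with minimum count 10 and minimum total 15, trimmed mean of M values, glmQLFit and glmQLFTest, two-sided, no covariate), with Benjamini-Hochberg adjustment over 13279 genes and a threshold of 0.05. An exact test of 2 against 2 libraries could not reach that threshold for a single gene (smallest p 0.333). The SE was taken as the log2 fold change over the square root of F. The fit was tested on simulated data with a single spread for both groups, so the simulation did not cover their unequal spread. Replicates differed by more than counting noise (chi-square per degree of freedom 28.5 in the knockout-labelled pair and 9.33 in wild type). Sequence sharing came from GENCODE M21 transcripts, on either strand, and read length was not known. Of the wider list, 155 genes matched by symbol and 5 by an older symbol. Named genes were every member, the wider genes past the threshold, Setd2, Foxp3 and the cell markers. The members and lists were chosen with earlier results of these data known. Alternatives were other scalings, filters and tests (DESeq2 1.42.0, limma 3.58.1), and leaving out each library. Depth was 14599957 to 16030869 counts per library, and floors of 3 counts cover counting error only. A planned comparison of Atg8 proteins was not made, and protein sequences were not used here. Figures were drawn with matplotlib 3.10.9.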

Additional observations from a re-analysis of the deposited data

How the results depend on the processing

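No paired analysis was possible because the groups share no replicate numbers. The 8 called members were called with DESeq2-type size factors, limma-voom, a minimum of 5 CPM, no filter and DESeq2, and 7 of them with upper-quartile scaling and library totals (Gabarap was not). No filter called 11 members, adding Atg12, Atg4a and Map1lc3b, against 12.5% of all genes. DESeq2 called 10, adding Atg12 and Map1lc3b, against 15.1% of all genes. In the reported fit 10.1% of all genes were called. With limma on log2(FPKM + 1) and log2(FPKM + 0.1), 3 members and 1 wider gene were higher, with 445 and 457 of all genes; limma with no filter called 0 genes higher and 0 lower, 0 members and 0 wider genes, with 4416 genes at an unadjusted p below 0.05. The test beyond a 1.2-fold change called 372 genes up and 248 down, with 2 members higher, and 2 wider genes higher and 1 lower. With no filter the counts were 1261 higher and 1088 lower, with 11 wider genes higher and 9 lower; DESeq2 gave 11 and 8 wider genes, the 5 CPM minimum 8 higher and library totals 4 lower. All genes split 674 higher and 771 lower with library totals, against 734 and 610 in the reported fit. The cause was not tested.

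Leaving out each library gave 120 to 2122 genes higher and 70 to 2002 lower, 1 to 14 members higher and 0 to 2 lower, 0 to 27 wider genes higher and 0 to 16 lower, the lowest counts without a wild-type library and the highest without knockout-labelled 24, except that 2 members were lower without knockout-labelled 22. The members' median stayed above 0, from 0.078 to 0.268 over all settings. Members whose fitted value was near 0 changed sign under the alternatives below. With library totals Atg101, Atg13, Atg4c, Mtor and Pik3c3 had log2 fold changes of -0.046, -0.018, -0.033, -0.046 and -0.023. With limma on log2(FPKM + 1), filtered or not, they had -0.044, -0.022, -0.019, -0.050 and -0.015, and with log2(FPKM + 0.1) -0.047, -0.025, -0.060, -0.057 and -0.016. Upper-quartile scaling gave -0.018 for Atg101, -0.00324 for Atg4c and -0.020 for Mtor, and limma-voom -0.00699 for Atg4c and -0.000649 for Mtor. Lamp2 had 0.000124 with DESeq2-type size factors, 8.36e-05 with DESeq2 and 0.00705 at 5 CPM.

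Over the fits that left out a library, log2 fold changes ran from -0.178 to 0.239 for Atg13, -0.109 to 0.290 for Atg2b, -0.00895 to 0.268 for Atg9a, -0.215 to 0.219 for Mtor, -4.33e-05 to 0.682 for Nbr1, -0.123 to 0.199 for Pik3c3, -0.162 to 0.447 for Uvrag, -0.192 to 0.00787 for Ambra1, -0.043 to 0.058 for Atg101, -0.353 to 0.321 for Atg4c, -0.061 to 0.415 for Gabarapl2, -0.088 to 0.076 for Lamp2, -0.069 to 0.020 for Pik3r4 and -0.540 to 0.160 for Rptor. Of these, Nbr1 and Uvrag passed without knockout-labelled 24 and Gabarapl2 and Rptor without knockout-labelled 22. In the 200 bases before the start, CACGTG stood in 13.9% of members and 6% of all genes of the RefSeq promoter table.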
